A study of Mus musculus with 6 samples.

Results

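Perineuronal net matrix genes were followed here as 8 genes, namely the lecticans Acan, Bcan and Ncan, the link protein genes Hapln1, Hapln2 and Hapln4, and the tenascin genes Tnr and Tnc. Every probe set whose platform gene symbol was one of these 8 was taken, which gave 16 of 45137 non-control probe sets, 10 on the first array type (A) and 6 on the second (B). All 8 genes were represented, and Bcan, Ncan, Hapln1 and Tnc were on both array types. The RNA was total RNA of mouse lumbar spinal cord, segments L3 to L5, at postnatal day 27. The comparison set 2 pools of RNA carrying the label Egr3-deficient, called pool 1 and pool 2, against a single wild-type pool. Every pool held 3 cords and went once onto each array type. The labels of pool 2 and of the wild-type pool name acclimatization as a treatment, and the label of pool 1 does not. The strain, sex and deleted allele are not given in the labels, and the wild-type pool has no replicate.

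A perineuronal net is a condensed extracellular matrix around the cell body and proximal dendrites of certain neurons, among them fast-spiking parvalbumin interneurons and, in the spinal cord, motor neurons. Hyaluronan forms its backbone, lecticans (chondroitin sulfate proteoglycans) bind that backbone, link proteins lock the bond, and tenascins cross-link the far ends of the lecticans. Lecticans and tenascins of the central nervous system are made by glia as well as by neurons, and the link proteins Hapln2 and Hapln4 are also known from nodes of Ranvier and synapses. Egr3 is a zinc finger transcription factor whose loss in mice is known to leave muscle without spindles and to remove gamma motor neurons.

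The RNA carried the marker genes of spinal cord cells. All 9 neuronal, all 9 astrocyte and all 8 oligodendrocyte markers on array type A were bright enough to be tested. Markers of tissue outside the cord also differed between pools. The summed intensity of 10 skeletal muscle genes on A was 4240 and 5426 in pools 1 and 2 against 149 in wild type, and that of 5 liver genes was 223 and 7448 against 85.9. Egr3 itself did not pass in either direction (A: 24.9 and 52.7 against 40.6; B: 210 and 107 against 75.3; limma adjusted p = 0.986 and 0.348). Whether its probe sets lie in the deleted part is not given in the labels, so the pools are called by their labels. In whole cord RNA, fewer cells of a type and less RNA per cell cannot be told apart.

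No net matrix gene passed the test on either array type. Of the 16 probe sets, 11 were bright enough to be tested, and 0 of 6 on A and 0 of 5 on B reached a Benjamini-Hochberg adjusted p under 0.05 by limma. Over all tested probe sets on A, 0.0663% were called higher and 0% lower, and on B 1.02% were called higher and 0.607% lower. At an unadjusted p under 0.05 there were 0 members on A and 1 on B, Tnr. None of the 11 differed by 2-fold or more with the same sign in pool 1 and pool 2, as 5.55% of tested probe sets did on A and 6.07% on B.

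The members did not share a direction. On A, both pools exceeded wild type on 5 of 10 probe sets and fell short of it on 4, against 42.7% above and 35.5% below among all probe sets. On B, 2 of 6 were above and 3 below, against 37.8% and 35%. The median log2 difference over the member probe sets was 0.23 on A, where all probe sets had a median of 0.054, and -0.16 on B, where all had 0.017. The 2 array types together thus held 7 probe sets above wild type in both pools, 7 below and 2 with the pools on opposite sides.

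Pool 1 lay farther from wild type than pool 2 for most members. This held for 7 of 10 probe sets on A and 6 of 6 on B, where 62.1% and 61.4% of all probe sets did the same. In pool 1, 2 of 10 probe sets on A and 3 of 6 on B were at least 2-fold from wild type. In pool 2, 1 of 10 on A and 0 of 6 on B were. The 1 in pool 2 was a Hapln1 probe set too dim to be tested (1426294_at, -1.07). Among all probe sets the shares were 14.1% for pool 1 and 7.56% for pool 2 on A, and 26% and 16.3% on B. Pool 1 is the pool without the acclimatization remark. That treatment cannot be told apart here from other differences between the pools, and its part in the distance of pool 1 was not tested.

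**Figure D1:**
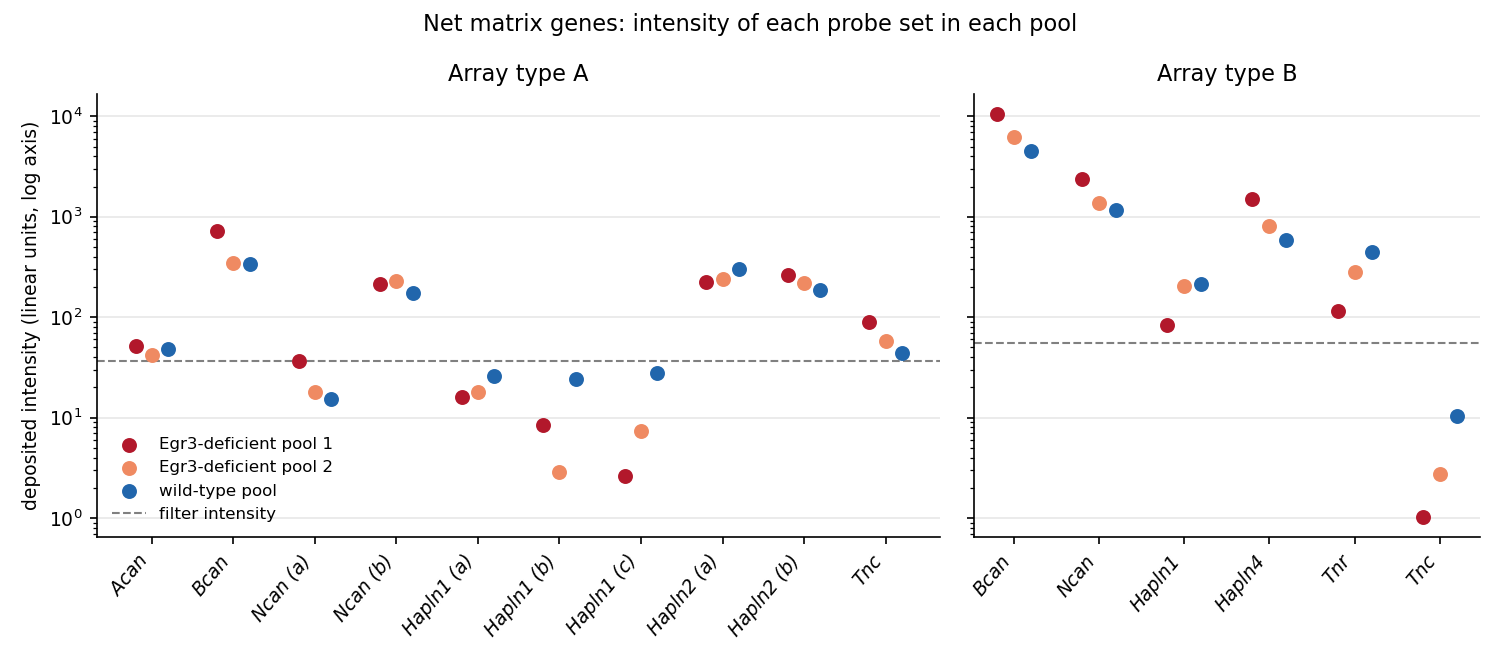
Deposited intensity (linear units on a log axis) of the 16 member probe sets, with 1 point for each pool and a dashed line at the filter intensity of each array type. Bcan, Ncan and Hapln4 were brightest in pool 1 on array type B, Tnr was dimmest in pool 1, and 4 dim probe sets on A and 1 on B lay at or below the dashed line in all or most pools.

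The lecticans leaned above wild type, mostly in pool 1, and none passed. Bcan (brevican), the short lectican of mature brain, read 722 and 346 in pools 1 and 2 on A against 338 in wild type. Pool 1 alone stood apart, since pool 2 and wild type were nearly level. On the normalized log2 scale the difference was 0.54 (SE 0.42, limma adjusted p = 0.470), made of 1.03 in pool 1 and 0.053 in pool 2. The Bcan probe set on B was among the brightest of all, at percentile 99.9 in each pool, and read 10626 and 6244 against 4534. That order, highest in pool 1 and lowest in wild type, was nearly removed by quantile normalization, which left 0.16 on the log2 scale (SE 0.27, limma adjusted p = 0.866). Without quantile normalization the Bcan difference on B was 0.84, and under median centring 1.01, neither past the threshold.

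Ncan (neurocan), a lectican that is most abundant in the developing brain, had 3 probe sets. The one on B read 2391 and 1372 in pools 1 and 2 against 1163 in wild type, again with pool 1 highest and pool 2 close to wild type. Its normalized log2 difference was 0.31 (SE 0.37, limma adjusted p = 0.781), and it ranged from 0.056 to 0.80 over the settings tried. On A, probe set 1434679_at read 215 and 231 against 175, so both pools were above wild type by similar amounts (log2 difference 0.39, SE 0.31, adjusted p = 0.485). The second Ncan probe set on A, 1423604_at, was too dim to be tested at 36.9 and 17.8 against 15.3.

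Acan (aggrecan), the lectican most closely tied to mature nets and also the main proteoglycan of cartilage, read 51.3 and 41.9 in pools 1 and 2 on A against 48.6 in wild type. The pools lay on either side of wild type, and the probe set was only a little above the filter intensity of 36.7. The log2 difference was 0.067 (SE 0.35, limma adjusted p = 0.924), and its sign turned to -0.048 without quantile normalization. Cartilage and bone markers were dim in all pools. Their summed intensity over 9 genes on A was 273 and 224 against 243, and 3 of the 9 reached the filter.

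Link protein genes went separate ways. Hapln4, whose product is known to bind brevican in hindbrain and cerebellar nets, read 1493 and 807 in pools 1 and 2 on B against 581 in wild type. Both pools were above wild type, pool 1 by more. Its log2 difference of 0.68 (SE 0.40, limma adjusted p = 0.473) ranged from 0.32 to 1.07 over the settings and passed in none of them. Hapln4 lies on chromosome 8 (GRCm38.p6, 70083529 to 70090862), 2.22 kb from its neighbour Ncan with no protein-coding gene between them. Both genes read highest in pool 1 on B and lowest in wild type. That order was not particular to the pair, since Bcan and the median of the probe sets shared by both array types had it on B too.

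Hapln1, the link protein also known from cartilage, was below wild type on every probe set. On B it read 83.1 in pool 1 and 205 in pool 2 against 212 in wild type, so pool 2 was level with wild type and pool 1 alone was dimmer. The log2 difference was -0.53 (SE 0.48, limma adjusted p = 0.690), of which pool 1 gave -1.05 and pool 2 -0.0063. On A its 3 probe sets were all dim and untested, reading 16.1 and 18.1 against 26.1 (1421633_a_at), 8.50 and 2.88 against 24.5 (1426294_at), and 2.62 and 7.28 against 27.6 (1426295_at). Wild type was highest on all 3, at intensities below the filter, and their differences ran from -0.26 to -1.02.

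Hapln2, a link protein of nodes of Ranvier made by oligodendrocytes, had 2 probe sets on A that pointed opposite ways. Probe set 1420962_at read 226 and 239 in pools 1 and 2 against 305 in wild type (log2 difference -0.35, SE 0.30, limma adjusted p = 0.522). The other, 1420963_at, read 266 and 219 against 186 (0.41, SE 0.32, adjusted p = 0.481). Both pools were below wild type on the first and above it on the second, so no direction can be given for Hapln2. The gene lies 18.4 kb from Bcan on chromosome 3 (88020558 to 88027511, with Bcan at 87987531 to 88002175) with no protein-coding gene between.

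**Figure D2:**
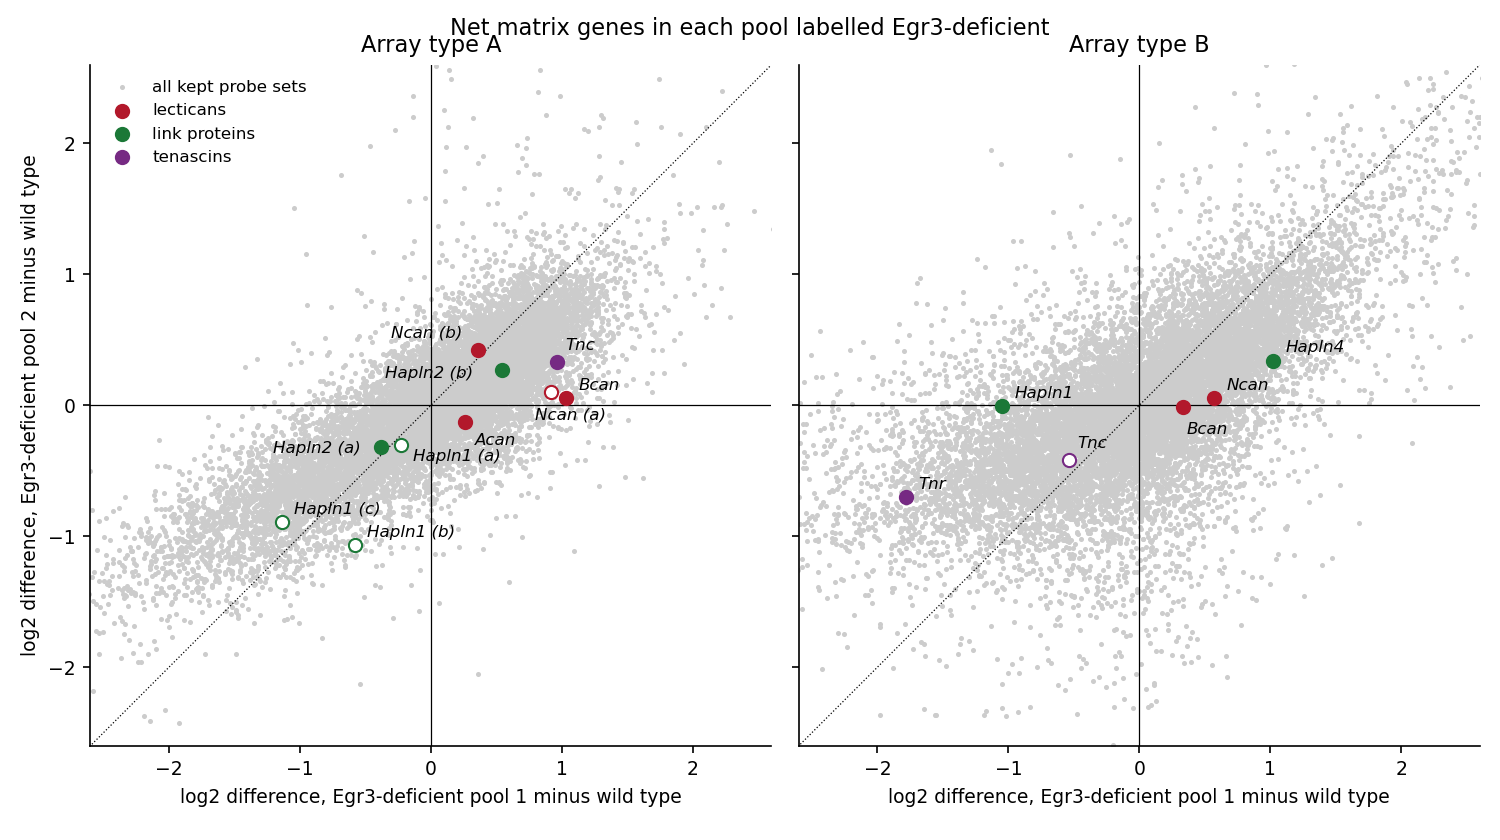
Normalized log2 difference from wild type in pool 1 (horizontal axis) and pool 2 (vertical axis) for member probe sets, over all kept probe sets in grey, with open circles for members too dim to be tested and a dotted line where the pools are equal; points beyond 2.6 on either axis are not drawn, and letters in brackets mark a gene's probe sets in the order of their identifiers. Bcan, Ncan and Hapln1 on array type B lie along the horizontal axis, with pool 2 near 0, and Tnr is the lowest member in pool 1 at -1.78.

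Tnr had the lowest difference of any tested member. Tenascin-R, its product, is made by oligodendrocytes and by some neurons and cross-links lecticans in nets. The probe set read 116 in pool 1 and 282 in pool 2 on B, against 446 in wild type. Both pools were below wild type, pool 1 at 0.260 of its intensity and pool 2 at 0.632. The log2 difference was -1.24 (SE 0.47) and did not pass (limma adjusted p = 0.177, unadjusted p = 0.0105). It was the 484th lowest of 13507 tested probe sets on B, at percentile 3.58. Over the settings that give a test, the Tnr difference ran from -1.05 to -1.80 and its limma adjusted p from 0.0808 to 0.498. With pool 1 left out the difference was -0.699, and with pool 2 left out -1.779, values with no test. Tnr thus kept its sign and never passed.

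Glial markers were mixed on the same array type, and those called lower were called under only some settings. Ermn, an oligodendrocyte cytoskeletal protein, fell by 1.75 and 1.72 on the log2 scale on 2 probe sets on B (limma adjusted p = 0.00760 and 0.00988). Aqp4, the astrocyte water channel, fell by 1.84 (adjusted p = 0.0115), and Slc1a2, the astrocyte glutamate transporter, by 1.18 on 1 probe set (adjusted p = 0.0403). That Slc1a2 probe set read 3513 and 7489 in pools 1 and 2 against 7384 in wild type, and its log2 differences were -1.88 and -0.48. The Ermn and Aqp4 calls held under 5 of 10 alternatives each and the Slc1a2 call under 3, and all 4 were lost under every other scaling, without the filter and without the intensity trend, with adjusted p up to 0.455 for Aqp4, 0.524 for Ermn and 0.928 for Slc1a2. Some probe sets of other glial genes read higher. Mobp is a myelin protein. Its probe set 1441308_at read 373 and 216 in pools 1 and 2 on B, against 94 in wild type (1.55, adjusted p = 0.0689). A brighter Mobp probe set stands for the gene in the oligodendrocyte list. On the normalized scale, 0 of the 2 genes of that list on B exceeded wild type in each pool. Gfap, the astrocyte filament protein, read 7583 and 3930 on B against 3136 (0.26, adjusted p = 0.770). Of 9 astrocyte markers on A, 2 were above wild type in each pool and 4 below (median -0.10), and of 4 on B none was above and 3 were below (median -0.69). The 8 oligodendrocyte markers on A had a summed intensity of 26572 and 33695 against 42842, with 1 above in each pool and 5 below (median -0.37). The 9 neuronal markers on A summed to 12899 and 14934 against 18667, with 2 above and 6 below. On B the sums of deposited intensity were higher in both pools, at 21959 and 23292 against 20632 for 5 neuronal markers and 14382 and 11268 against 10350 for 2 oligodendrocyte markers. Their normalized medians were -0.41 and -0.83. The probe sets that both array types share also had higher median intensities in pools 1 and 2 on B (1662 and 1374 against 1008). A single value of 13383, from the brighter Mobp probe set, made up most of the pool 1 oligodendrocyte sum. The part of these cells in the Tnr value was not tested.

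Tnc, tenascin-C, which is abundant in development, in tendon and in reactive glia, had opposite signs on the array types. On A it read 89.1 and 57.6 in pools 1 and 2 against 44.3 in wild type, with both pools higher and pool 1 highest. The log2 difference was 0.64 (SE 0.38, limma adjusted p = 0.355). On B its probe set was near the bottom of the scale at 1.03 and 2.72 against 10.3, below the filter intensity of 55.9, and was not tested. Tendon markers on A, over 4 genes, summed to 344 and 295 against 252, in the same order as Tnc. Only 1 of the 4 reached the filter, and the highest single value was 303. The part of tendon in the Tnc value was not tested.

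The promoters of the 2 tenascin genes are shown because 1 of them holds the binding element of the EGR family. They were chosen with the member differences known. Among tested members Tnr had the lowest difference and Tnc the highest after Hapln4, and neither passed. A link between the element and these differences was not tested. The element was searched as GCGNGGGCG on both strands in RefSeq promoter windows (GRCm38.p6) of 250 bases before and 50 after a gene start. Windows were found for 7 of the 8 members, 8 windows in all, and the element was in 2 of the 8, against 5.55% of all 32851 windows. Both are windows of Tnc with different starts and hold the same match, so 1 of the 7 genes had the element. The first base of the match lies 171 bases before 1 start and 250 before the other. The stretch before the first of these starts is given below, with the match in capitals (chr4:64047016-64047265, minus strand). The Tnr stretch (chr1:159523519-159523768, plus strand) holds no match. Both run 5′ to 3′ and end at the base before the start used. A match is a description of letters and not evidence of binding.
Tnc: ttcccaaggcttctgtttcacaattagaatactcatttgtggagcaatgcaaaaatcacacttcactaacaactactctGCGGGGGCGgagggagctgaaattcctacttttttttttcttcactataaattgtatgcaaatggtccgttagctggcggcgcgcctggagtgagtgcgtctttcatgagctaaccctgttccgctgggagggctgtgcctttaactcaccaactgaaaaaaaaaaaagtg
Tnr: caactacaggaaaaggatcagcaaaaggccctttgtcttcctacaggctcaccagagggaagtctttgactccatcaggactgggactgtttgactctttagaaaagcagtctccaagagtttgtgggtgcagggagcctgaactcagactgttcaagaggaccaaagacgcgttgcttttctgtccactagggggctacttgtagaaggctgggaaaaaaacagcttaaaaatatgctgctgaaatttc

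The scaling of the arrays moved the members on B more than on A. The 100 probe sets that the 2 array types share had a median intensity on B of 1662 and 1374 in pools 1 and 2 against 1008 in wild type, and on A of 344 and 310 against 327. Bcan, Ncan and Hapln4 on B had the same order as that shared median. Tnr, Hapln1 and the dim, untested Tnc probe set on B had the opposite order. Centring on those shared probe sets moved the median of all probe sets on B to -0.67. On that scale Bcan, Ncan and Hapln4 stood at 0.27, 0.056 and 0.32, all above that median, and Hapln1 and Tnr at -1.20 and -1.80, both below it. None of these passed under any of the 4 scalings.

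**Figure D3:**
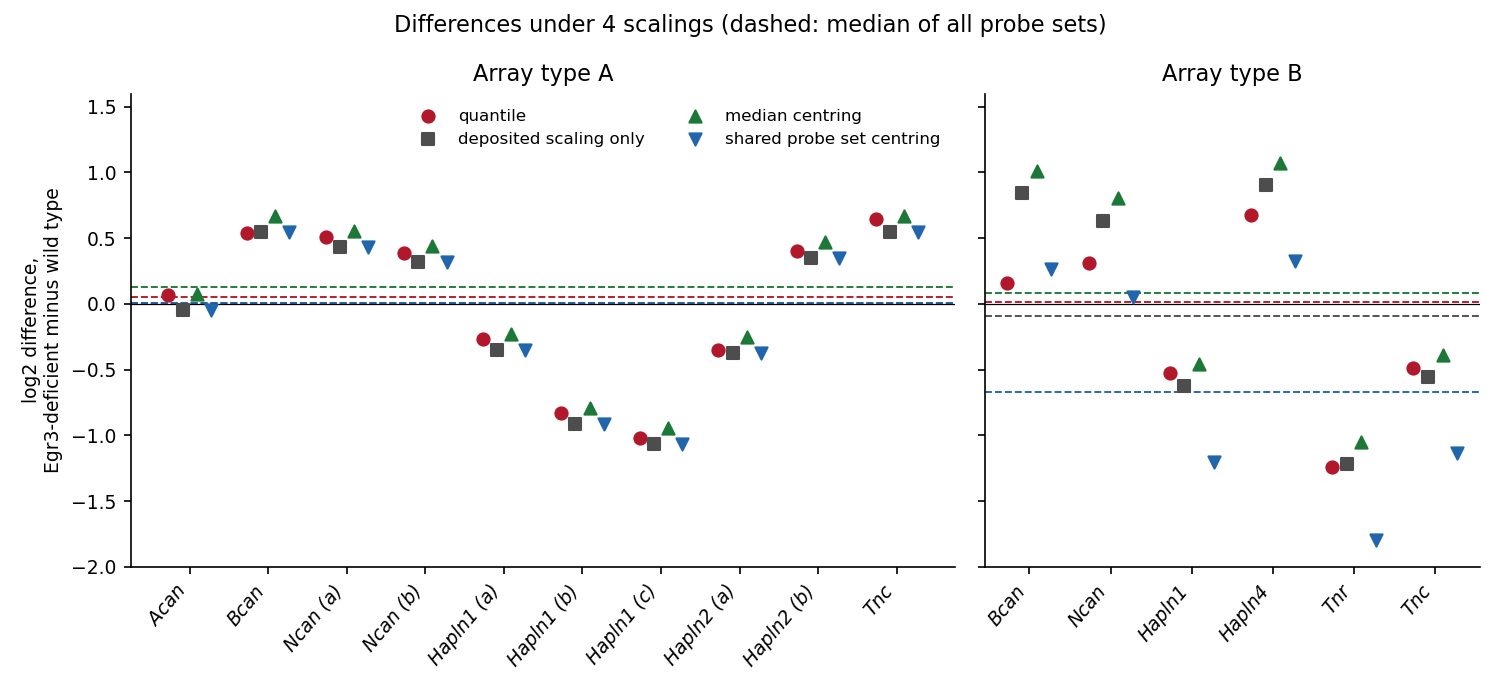
Log2 difference, Egr3-deficient minus wild type, of each member probe set under 4 scalings, with dashed lines at the median of all probe sets under each. Every member but Acan kept its sign under these scalings, and on array type B the 3 bright probe sets Bcan, Ncan and Hapln4 were lowest under quantile normalization or shared probe set centring.

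Genes that make, cut or bind the same matrix gave no call either. The 5 lists held 80 entries, of which 66 were on A and 31 on B, and 49 and 26 were bright enough to be tested. None was called on either array type, against 0.0663% higher and 0% lower on A and 1.02% and 0.607% on B over all tested probe sets. On A both pools exceeded wild type for 31 of 66 genes and fell short for 21, and on B for 11 and 9 of 31, near the shares of all probe sets given above.

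Vcan (versican), the remaining lectican, was below wild type on A and above it on B, and did not pass on either. On A its 3 probe sets read 21.2 and 38.6 in pools 1 and 2 against 116 in wild type (1421694_a_at), 32.9 and 40.7 against 114 (1427256_at), and 10.8 and 16.4 against 74.9 (1427257_at). Wild type was the highest on all 3. The 2 tested ones differed by -1.45 and -1.21 (limma adjusted p = 0.161 for both) and passed only under median centring (0.00716 and 0.0379). On B the brightest Vcan probe set, 1433043_at, read 76.6 and 96 against 48.2, with both pools above wild type (0.87, adjusted p = 0.631). Vcan lies 43.5 kb from Hapln1 on chromosome 13, and both were below wild type in both pools on A. Hapln3, 1.93 kb from Acan on chromosome 7, read 159 and 179 against 164 on B, which is level with wild type.

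Receptors and binding partners of the net differed between probe sets and array types, and none passed. Of 16 such genes on A, 7 were above wild type in each pool and 6 below (median 0.056), and of 10 on B 4 were above and 5 below (median -0.30). Cntn1, contactin-1, a neuronal receptor of tenascin-R, read 770 and 1273 in pools 1 and 2 on A against 2516 in wild type (1449563_at, log2 difference -1.45, limma adjusted p = 0.161). Its other probe set on A, 1452981_at, read 336 and 623 against 1521 (-1.79, adjusted p = 0.161). Wild type was highest on both and pool 1 lowest. On B, the array type that holds Tnr, Cntn1 read 1450 and 988 against 1296, so in deposited intensity pool 1 was brightest and pool 2 dimmest. On the normalized log2 scale both pools were below wild type, as on A, by -0.25 in pool 1 and -0.58 in pool 2 (mean -0.41, adjusted p = 0.690). Itgb1, the integrin beta-1 subunit, read 97.6 and 162 against 322 on A (-1.20, adjusted p = 0.171). Plxna1, a semaphorin receptor subunit, read 591 and 428 against 196 on B (1.31, adjusted p = 0.112), and on A was too dim to be tested at 13.2 and 29.1 against 31.3. Cntn2, an axonal contactin, read 687 and 665 against 313 on B (1435166_at, 1.01, adjusted p = 0.243), and on A 23.5 and 51.1 against 63.4 (-0.51, adjusted p = 0.449). Plxna1 and Cntn2 were thus above wild type in each pool on B and below it on A. Ptprz1, a matrix gene whose secreted form is phosphacan, read 109 and 139 against 293 on A (1427019_at, -1.11, adjusted p = 0.167).

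Enzymes of the matrix showed small differences in both directions. Among the chondroitin sulfate synthesis genes, Chpf2, a chain polymerizing factor, read 142 and 149 in pools 1 and 2 against 90.6 in wild type on A (log2 difference 0.70, limma adjusted p = 0.263). Csgalnact1, which starts the chain, read 60 and 76.2 against 132 (-0.72, adjusted p = 0.262). Chsy1, a chondroitin synthase, read 479 and 340 against 217 on B (0.86, adjusted p = 0.375). For these 3 genes both pools lay on the same side of wild type, and the list medians were 0.23 on A and 0.0092 on B.

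Matrix proteases and their inhibitors were likewise mixed. Mmp2, a gelatinase, read 267 and 291 in pools 1 and 2 against 154 in wild type (0.86, limma adjusted p = 0.198). Adamts5, a lectican-cutting protease, read 32.2 and 38.3 against 76.1 on A (-0.74, adjusted p = 0.248). Timp3, an inhibitor of both protease families, read 222 and 237 against 381 (-0.67, adjusted p = 0.258). For the protease list the medians were 0.23 (A) and -0.35 (B). Of the hyaluronan genes, Tnfaip6, a hyaluronan-binding protein, read 254 and 168 against 117 (0.82, adjusted p = 0.253), and the list medians were 0.26 on A and 0.10 on B.

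**Figure D4:**
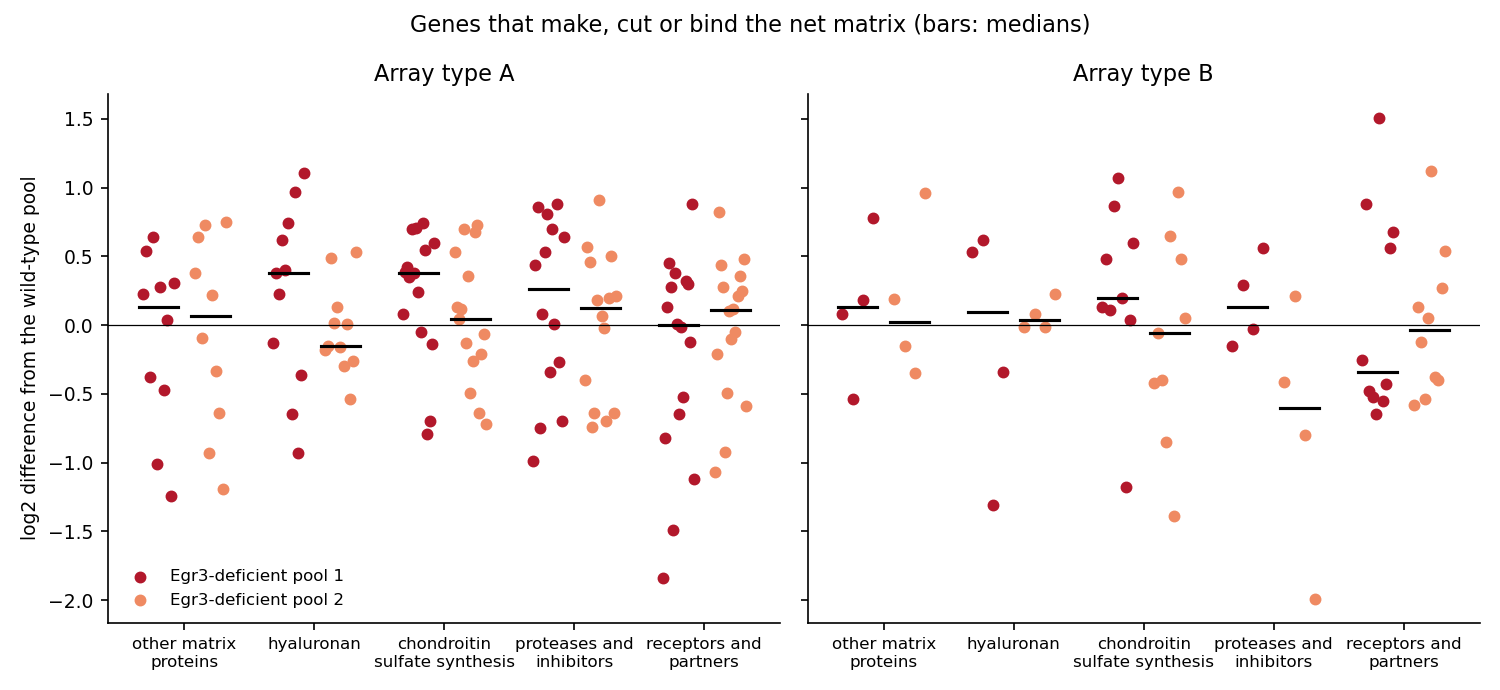
Log2 difference from the wild-type pool in pool 1 and pool 2 for genes of the 5 related lists, 1 point a gene (its brightest probe set), with bars at the list median in each pool. Points of every list lie on both sides of 0 on array type A, and the list medians on A run from -0.15 to 0.38.

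Markers of the neurons that carry nets did not pass and were mixed in direction. Pvalb, the calcium-binding protein parvalbumin, read 1354 and 1487 in pools 1 and 2 against 848 in wild type on A (log2 difference 0.63, limma adjusted p = 0.208). Both pools were above wild type by similar amounts. Kcna1, a potassium channel, read 561 and 777 against 1118 on A (-0.83, adjusted p = 0.198). Chodl, a marker of fast motor neurons, read 85.3 and 174 against 299 (-1.13, adjusted p = 0.199), with wild type highest and pool 1 lowest. Slc18a3, the vesicular acetylcholine transporter, read 145 and 141 against 110 on A (0.43, adjusted p = 0.459), and Chat, which makes acetylcholine, read 94.7 and 149 against 76.4 on B (0.74, adjusted p = 0.591), both above wild type. Of 7 motor neuron markers on A, 2 were above in each pool and 4 below (median -0.34), and of 5 net-bearing neuron markers 3 were above and 1 below (median 0.19). The summed intensity of the 5 net-bearing neuron markers on A was 2887 and 3376 against 2900, and that of 7 motor neuron markers 647 and 689 against 917.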

How the data were processed

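Total RNA pools of mouse lumbar cord were measured on 2 array types (6 arrays). The deposited values are linear intensities, 1 for each probe set on an array. Their mean after trimming 2% from each tail lies between 150.02 and 150.06 on every array. The sources used here do not name the summary program. Each array type was analysed alone: control probe sets (64) were left out, values became log2(intensity + 16), were quantile normalized, and were kept where the mean reached the 40th percentile (13576 probe sets on A, 13507 on B). Differences on this scale understate changes of dim genes. Limma 3.58.1 in R 4.3.3 (lmFit, eBayes with an intensity trend, two-sided, Benjamini-Hochberg within the array type) compared 2 pools with 1, leaving 1 residual degree of freedom. The lone wild-type pool is assumed to vary like the others, and the prior (6.54 and 52.3 degrees of freedom) sets most of each SE. P-values cover the spread between these pools only. The number of arrays limits the precision. The code was tested on simulated data.

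Symbols were updated by gene identifier to RefSeq (GRCm38.p6) for 20351 and 14486 probe sets; 20380 on A and 14661 on B had 1 symbol, 691 and 245 several (not named), and 1555 and 7605 none. Lists used each gene's probe set with the highest mean. Named genes were all member probe sets and, per list, those past the threshold and then up to 3 with the largest smaller-of-2 difference of 1 sign, of which the text gives a part. Members and lists were chosen with earlier results of these data known. Levels are not compared between probe sets. Alternatives for the member median also included the mean of each gene's probe sets. Others were 3 other scalings, pseudocounts of 1 and 64, no filter or the 60th percentile, eBayes without trend or robust, adjustment over both array types, and leaving out each Egr3-deficient pool.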

Additional observations from a re-analysis of the deposited data

How the results depend on the processing

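The count of called members was 0 on both array types under every setting that gives a test, and leaving out a pool left no residual degrees of freedom, so those are values with no test. The member median on A, 0.227, ran from -0.036 to 0.308 when pool 1 or pool 2 was left out, and was 0.397 at the 40th and at the 60th percentile filter and 0.136 without quantile normalization and on shared probe sets. The median on B, -0.161, rests on 6 probe sets and was 0.038 without quantile normalization, 0.208 under median centring, -0.539 on shared probe sets, 0.006 at a pseudocount of 64, 0.162 at the 40th and at the 60th percentile filter, and -0.008 and -0.105 without pool 1 and pool 2. Of 192 member values under alternatives, 4 changed sign: Acan (-0.048 without quantile normalization, -0.048 on shared probe sets, -0.125 without pool 1 against 0.258 without pool 2) and Bcan on B (-0.010 without pool 1, 0.334 without pool 2). The filter, eBayes and adjustment alternatives leave each log2 difference as it was. Only the scalings, the pseudocounts and the left-out pools could change a sign, so the 192 overstate how far signs were tried. Egr3 on A turned to -0.094, -0.093 and -0.285 without quantile normalization, on shared probe sets and without pool 2, and was 0.311 without pool 1. On shared probe sets on B, Hapln3 turned to -0.540 and dim Vcan probe sets to -0.274, -0.513, -0.516 and -0.378, beside an overall shift of -0.67. The causes were not tested. Calls over all probe sets ran from 0 to 227 higher and 0 to 597 lower on A, and from 0 to 201 higher and 0 to 195 lower on B. No paired analysis was possible because the labels pair no pools between the groups.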
